A study of Mus musculus with 15 samples.

Results

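Atf4 and 9 genes of the integrated stress response were examined in whole lung of ventilated mice. The 10 genes were chosen by name, with earlier results of these data known. They were Atf4, Ddit3, Chac1, Trib3, Asns, Sesn2, Ppp1r15a, Ddit4, Nupr1 and Psat1. Each was represented by the array row that carried its symbol and no other. Each of the 10 had exactly 1 such row, among 28361 rows and 19934 genes with a row of their own. Male C57BL/6N mice of 24 to 26 g were compared after 6 h of treatment, with 5 mice and 1 array per mouse in each of 3 groups. One group was ventilated with synthetic air that carried 80 ppm hydrogen sulfide (H2S ventilated), and another with synthetic air alone (air ventilated), with 12 ml/kg per breath and 2 cm H2O of end-expiratory pressure in both. The third group breathed synthetic air on its own (control). All mice received ketamine and acepromazine and were given a tracheal tube and an arterial line, so that the control animals shared the anesthesia and the surgery. RNA came from the inferior right lobe, a mixture of cell types, in which fewer cells of a type and less RNA per cell cannot be told apart. Mice that breathed H2S without ventilation are not analysed here, so that H2S was only seen together with ventilation.

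In the integrated stress response, kinases that sense amino acid shortage, misfolded protein, double-stranded RNA or heme shortage phosphorylate the initiation factor eIF2. General protein synthesis falls, whereas the mRNA of the transcription factor Atf4 is translated more efficiently. Atf4 then activates genes for amino acid synthesis and uptake, redox balance and stress signalling, as well as Ddit3, whose protein Chop promotes cell death under lasting stress. Since Atf4 is controlled in large part at translation, an mRNA array does not measure its protein.

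Atf4 commonly binds a composite site, TGATGNAA, as a dimer with a C/EBP protein, and promoters of the 10 genes were read for these letters on both strands, from 250 bases before to 50 bases after the RefSeq start site (GRCm38.p6). All 10 genes were matched, with 11 windows since Psat1 had a second start. The letters were found in 4 of the 10 genes (Chac1, Trib3, Asns and Nupr1) and in 4.51% of the 27025 genes with a window, or 3.97% of all 32851 windows. Each match is shown with 10 bases on either side, 5′ to 3′ on the strand of the gene and with the matched letters in capitals.
Chac1: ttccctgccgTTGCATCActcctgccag
Nupr1: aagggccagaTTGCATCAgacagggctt
Asns: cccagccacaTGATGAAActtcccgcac
Trib3: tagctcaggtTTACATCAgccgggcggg
The match in Chac1 began at base -193 from the start site (chr2:119351039-119351066, plus strand) and that in Nupr1 at base -110 (chr7:126625563-126625590, minus strand). Both read TTGCATCA, which spells the site on the opposite strand. Asns held its match at base -23 (chr6:7693215-7693242, minus strand), and Trib3 held its match 15 bases into the transcript (chr2:152344029-152344056, minus strand). A looser spelling, TGANGNAA, which includes TGATGNAA, occurred in 18.6% of genes and added a second match in Chac1, whose 250 bases before the start (chr2:119350992-119351241, plus strand) are given with both matches in capitals.
Chac1: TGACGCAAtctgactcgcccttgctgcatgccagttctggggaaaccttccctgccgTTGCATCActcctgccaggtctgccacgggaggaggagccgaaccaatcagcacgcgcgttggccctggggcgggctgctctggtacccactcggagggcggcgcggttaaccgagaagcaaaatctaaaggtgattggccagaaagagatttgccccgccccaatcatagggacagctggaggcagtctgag
The cyclic AMP response element TGACGTCA, a palindrome bound by Creb and Atf family factors, was present in Ppp1r15a alone among the 10 genes, at base -12 (chr7:45526263-45526290, minus strand), and in 2.03% of all genes.
Ppp1r15a: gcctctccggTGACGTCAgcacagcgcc
Of the 761 genes with a window that were higher in H2S ventilated than in control mice, 4.07% held TGATGNAA, beside 3.62% of the 15611 genes measured. For TGANGNAA these shares were 14.5% and 16.6%, and for TGACGTCA 5.65% and 2.72%, given without a test. A match in letters is a description of the sequence, and binding was not measured.

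Deposited values were intensities on a linear scale after quantile normalization. The array medians lay between 179.8 and 184.6 in H2S ventilated, 179.1 and 187.2 in air ventilated and 184.2 and 187.5 in control mice, and arrays of a group correlated at 0.984 to 0.994 over all rows. Markers of alveolar type II cells, the surfactant-producing cells of the lung, had summed intensities of 40218 to 41447 in H2S ventilated, 39736 to 41715 in air ventilated and 40114 to 41934 in control mice, while 1 of the 5, Abca3, fell by 0.31 on the log2 scale with H2S (adjusted p = 0.0285). Neutrophil markers summed to 9251 to 17431 in H2S ventilated and 9621 to 14860 in air ventilated mice, against 5078 to 10273 in control mice, and 3 and 2 of 7 passed the test with H2S and with air. All 4 B cell markers measured fell in both ventilated groups, as did 2 of 5 endothelial markers, Tek and Kdr, and 2 of 4 alveolar macrophage markers, Marco and Krt79, rose with H2S. Of 53 markers from 12 cell type lists, 5 were higher and 10 lower with H2S, beside 3.92% and 3.93% of all rows. With air, 2 were higher and 6 lower, beside 1.56% and 1.89% of all rows. The part of these cell types in the results against control was not tested. Between H2S and air ventilated mice, 0 of the 53 passed the test, where 0.0705% of all rows were higher and 0.00705% lower. With so few rows past the test, this count cannot show that the cell types were equal in the 2 groups.

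Ventilation with H2S raised 6 of the 10 genes above control, Atf4 itself, Chac1, Trib3, Sesn2, Ppp1r15a and Nupr1, and lowered 0. The test was limma on log2 intensities with p-values adjusted by Benjamini-Hochberg over all rows, at an adjusted p under 0.05. Over all rows, 3.92% were higher and 3.93% lower by the same rule. The median difference of the 10 genes was 0.56 on the log2 scale, whereas that of all rows was 0.00. At an unadjusted p under 0.05 all 10 genes were higher, against 10.1% of rows. The thresholds of the study were p up to 0.005, adjusted p up to 0.1 and effect size 1.7 or more. Here they were applied to limma with the fold as effect size, whereas the study used the test CyberT and an effect size score. Its calls can therefore differ from those given here. In this way 3 genes passed, namely Chac1, Sesn2 and Nupr1, against 0.656% of rows. Of the 10 genes, Chac1, Sesn2, Ppp1r15a and Nupr1 stand in gene tables that the study drew from these same mice, which are therefore no independent evidence for them.

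**Figure D1:**
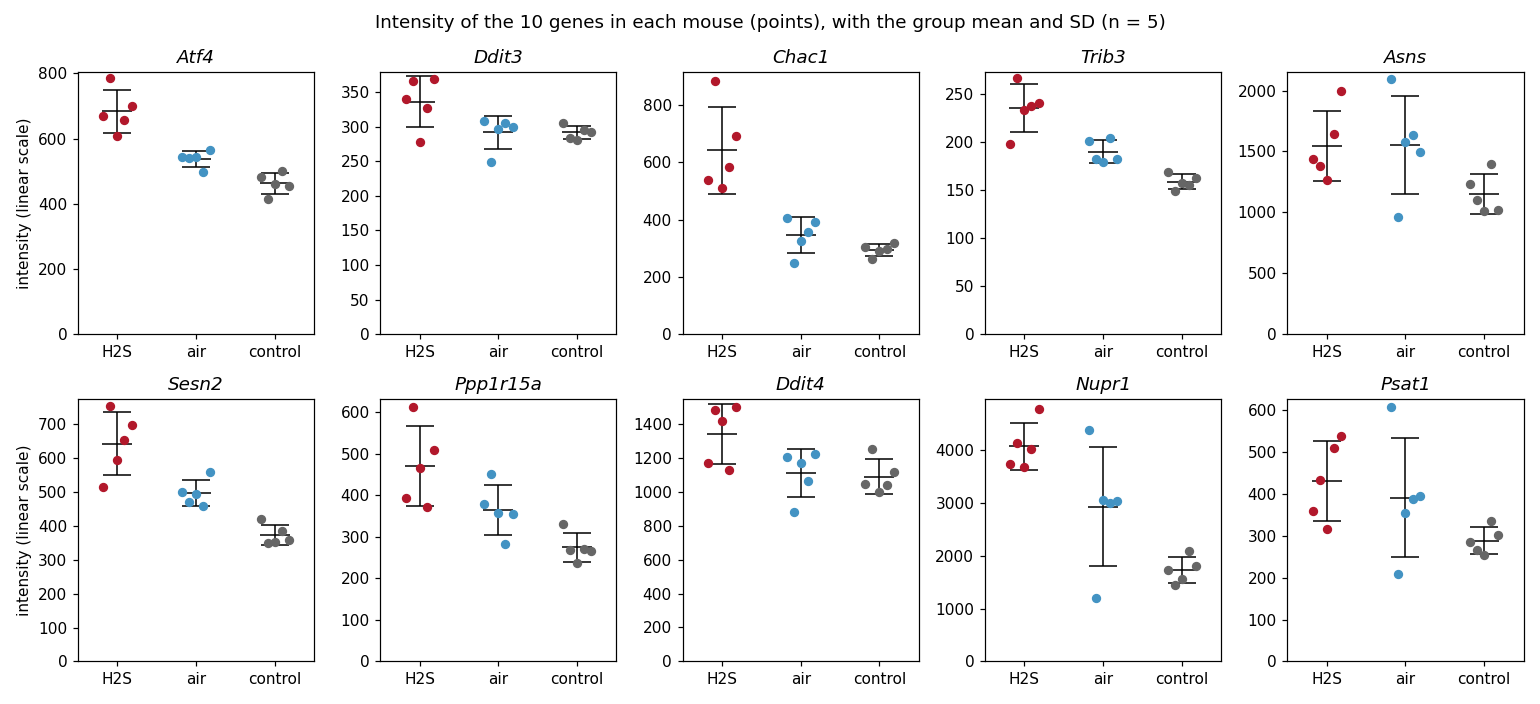
Intensity (linear scale, starting at 0) of each of the 10 genes in H2S ventilated, air ventilated and control mice. Points are single mice, and bars give the group mean and SD (n = 5). For Chac1 and Atf4 every H2S ventilated mouse lies above every air ventilated mouse.

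Atf4, the transcription factor at the centre of the response, had intensities of 669, 786, 607, 656 and 700 in H2S ventilated mice, of 543, 540, 543, 497 and 565 in air ventilated mice, and of 483, 414, 460, 501 and 453 in control mice. Every H2S ventilated mouse was above every mouse of the other groups, and air ventilated and control mice overlapped only through 1 air ventilated mouse at 497 and 1 control mouse at 501. Mean intensity was 684 ± 66.3 in H2S ventilated, 538 ± 25.1 in air ventilated and 462 ± 32.8 in control mice (SD, n = 5 each). The difference between H2S and control was 0.56 ± 0.08 on the log2 scale (SE), a fold of 1.48 with a 95% interval of 1.32 to 1.66 (limma, adjusted p = 0.000554). Air ventilation gave 0.22 ± 0.08 over control (adjusted p = 0.163). Between H2S and air the difference was 0.34 ± 0.08 (adjusted p = 0.18), the 71st smallest p of all rows, so that the separation of all 5 mice did not pass the correction for 28361 rows.

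Chac1 encodes an enzyme that degrades glutathione, the main thiol antioxidant of cells, and is a target of the Atf4 branch. It reached 537, 884, 511, 583 and 693 in H2S ventilated mice, against 405, 248, 325, 356 and 392 in air ventilated mice and 303, 261, 291, 298 and 318 in control mice. The lowest H2S ventilated mouse was above the highest mouse of either other group. Mean intensity was 642 ± 152 in H2S ventilated, 345 ± 62.7 in air ventilated and 294 ± 21 in control mice. Chac1 rose 2.14-fold with H2S over control (95% interval 1.72 to 2.66, adjusted p = 0.000507) and 1.85-fold over air (1.48 to 2.30, adjusted p = 0.0317). Its difference between air and control was 0.21 ± 0.15 on the log2 scale (adjusted p = 0.632). It was the only one of the 10 genes past the test between H2S and air, where it held the 18th smallest p of all rows.

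The call of Chac1 between H2S and air was close to the threshold. Over 27 alternatives with a p of their own, its adjusted p ran between 9.17e-05 and 0.872 while the difference stayed between 0.76 and 0.96 on the log2 scale. From group medians the difference was 0.71. It was lost when the fit held only H2S and air ventilated mice (adjusted p = 0.155) and when single mice were left out, namely control mice 12_21, 13_25 or 7_9, air ventilated mice 12_10 or 34_22, and H2S ventilated mice 27_28 or 4_8, with the highest adjusted p of 0.117 without 12_10. It was also lost with runs of 4 label numbers as a block (adjusted p = 0.101) and within the mice numbered 1 to 12 (adjusted p = 0.491) or 20 to 28 (adjusted p = 0.872) alone. Mice are named here by the pair of numbers in their labels, and the second of these defines the runs and sets.

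Nupr1, a small chromatin-associated stress protein, showed the largest difference from control of the 10 genes. Its intensities were 3730, 4137, 3687, 4023 and 4784 in H2S ventilated mice, 4370, 1195, 3048, 2994 and 3042 in air ventilated mice, and 1730, 1448, 1566, 2097 and 1807 in control mice. H2S ventilated mice were uniform and all above control, whereas the air ventilated mice held 4 values above every control mouse and 1 value, that of mouse 11_6, below every control mouse. The rise with H2S was 2.36-fold over control (95% interval 1.66 to 3.37, adjusted p = 0.00454). This call was lost in 2 of 27 alternatives, while the difference stayed between 1.17 and 1.31 on the log2 scale. With air the difference was 0.66 ± 0.24 on the log2 scale (adjusted p = 0.185), and without mouse 11_6 it was 0.95 (adjusted p = 0.00284). Nupr1 passed with air in 3 of 27 alternatives, of which leaving out this mouse was 1. Between H2S and air the difference was 0.58 ± 0.24 (adjusted p = 0.743), and 0.29 without mouse 11_6.

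Sesn2 encodes sestrin 2, a leucine-sensing inhibitor of mTORC1. H2S ventilated mice had 514, 754, 594, 655 and 698, air ventilated mice 499, 472, 495, 459 and 558, and control mice 421, 351, 352, 386 and 359. Both ventilated groups lay wholly above control, and they overlapped each other through the highest air ventilated and the lowest H2S ventilated mouse. Sesn2 rose 1.71-fold with H2S (95% interval 1.48 to 1.98, adjusted p = 0.000312) and 1.33-fold with air (1.15 to 1.54, adjusted p = 0.0283), the smallest adjusted p of the 10 genes in both comparisons. The call with air was lost without control mouse 13_25, 7_9 or 6_5 and without air ventilated mouse 12_10, 35_26 or 6_2 (adjusted p = 0.0657 to 0.0833), with runs of 4 label numbers as a block (adjusted p = 0.074), and within the mice numbered 1 to 12 (adjusted p = 0.273) or 20 to 28 (adjusted p = 0.783) alone. Its fold with air was below 1.7, the limit used here for the thresholds of the study. Between H2S and air the difference was 0.36 ± 0.10 on the log2 scale (adjusted p = 0.33).

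Trib3 and Ppp1r15a encode proteins that act back on the response. The pseudokinase Trib3 binds Atf4 and Chop and restrains their activity, and Ppp1r15a, also known as Gadd34, brings a phosphatase to eIF2 and lets protein synthesis resume. Trib3 intensity was 198, 267, 232, 237 and 240 in H2S ventilated mice, 200, 182, 179, 204 and 182 in air ventilated mice and 169, 149, 157, 155 and 162 in control mice. All 10 ventilated mice were above the 5 control mice, and the lowest H2S ventilated mouse lay within the air ventilated range. Trib3 rose 1.48-fold with H2S (95% interval 1.31 to 1.66, adjusted p = 0.000618), and its difference with air was 0.26 ± 0.08 on the log2 scale (adjusted p = 0.0983). Ppp1r15a intensity was 393, 613, 467, 373 and 509 in H2S ventilated mice, 379, 452, 358, 282 and 354 in air ventilated mice and 330, 269, 237, 271 and 266 in control mice. H2S ventilated and control mice did not overlap, whereas air ventilated mice overlapped both. Ppp1r15a rose 1.697-fold with H2S (95% interval 1.38 to 2.09, adjusted p = 0.00346), just under the limit of 1.7 applied here to the limma fold. Its difference with air was 0.40 ± 0.14 (adjusted p = 0.159). Between H2S and air, Trib3 differed by 0.31 ± 0.08 (adjusted p = 0.277) and Ppp1r15a by 0.36 ± 0.14 (adjusted p = 0.699).

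The remaining 4 genes did not pass the test in any of the 3 comparisons. Ddit3 had 341, 366, 279, 328 and 370 in H2S ventilated mice, 308, 249, 297, 306 and 299 in air ventilated mice and 305, 284, 282, 295 and 293 in control mice. One H2S ventilated mouse, 9_12, lay below all control mice while the other 4 were above them. Ddit3 differed by 0.20 ± 0.08 on the log2 scale between H2S and control (adjusted p = 0.184), by -0.0031 ± 0.08 between air and control (adjusted p = 0.997) and by 0.20 ± 0.08 between H2S and air (adjusted p = 0.757). Ddit4, also called Redd1, is an inhibitor of mTORC1 that is induced by hypoxia, glucocorticoids and Atf4. Its mean intensity was 1339 ± 176 in H2S ventilated, 1110 ± 142 in air ventilated and 1090 ± 102 in control mice. The difference was 0.29 ± 0.11 with H2S (adjusted p = 0.127) and 0.02 ± 0.11 with air (adjusted p = 0.982), and between H2S and air it was 0.27 ± 0.11 (adjusted p = 0.736).

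Asns, which makes asparagine, and Psat1, an enzyme of serine synthesis, had their widest spread in air ventilated mice. Asns intensity was 1441, 1380, 1269, 1642 and 1993 in H2S ventilated mice, 2097, 963, 1580, 1636 and 1496 in air ventilated mice and 1234, 1099, 1013, 1395 and 1015 in control mice. Psat1 intensity was 358, 434, 317, 511 and 538 in H2S ventilated mice, 607, 210, 354, 388 and 394 in air ventilated mice and 285, 267, 255, 335 and 303 in control mice. Of all 15 mice, air ventilated mouse 6_2 was highest and air ventilated mouse 11_6 lowest for both genes. Asns differed from control by 0.42 ± 0.17 on the log2 scale with H2S (adjusted p = 0.17) and 0.40 ± 0.17 with air (adjusted p = 0.288), and Psat1 by 0.56 ± 0.21 (adjusted p = 0.136) and 0.36 ± 0.21 (adjusted p = 0.526). For Asns, H2S and air ventilated mice differed by 0.02, with a 95% interval of the fold of 0.785 to 1.30, and for Psat1 by 0.19, with an interval of 0.835 to 1.57. Psat1 passed the test between H2S and control when only these groups entered the fit (adjusted p = 0.0424) and when mouse 11_6 was left out (adjusted p = 0.0482). With CyberT, the test that the study used, Asns (adjusted p = 0.0153) and Psat1 (adjusted p = 0.00453) both passed between H2S and control. Without mouse 11_6, Asns passed the test between air and control at 0.56 (adjusted p = 0.0481), and Psat1 differed by 0.57 (adjusted p = 0.118). Without mouse 6_2, Psat1 differed between air and control by 0.18 (adjusted p = 0.864).

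**Figure D2:**
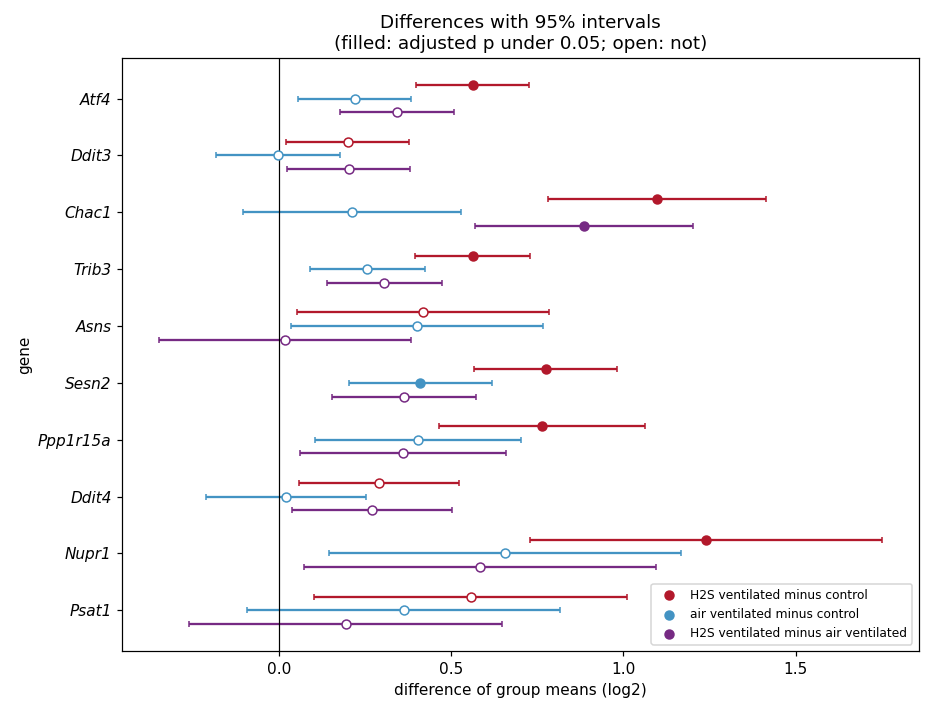
Difference of group means (log2) for each of the 10 genes with its 95% interval, for H2S ventilated minus control, air ventilated minus control and H2S ventilated minus air ventilated. Filled points had an adjusted p under 0.05 (6, 1 and 1 genes), and open points did not.

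Against control, air ventilation alone took 1 of the 10 genes past the test. Sesn2 was higher and 0 were lower, where 1.56% of all rows were higher and 1.89% lower. The median difference of the 10 genes was 0.31 on the log2 scale, beside 0.01 for all rows, and 9 of 10 differences were positive. At an unadjusted p under 0.05, 6 of the 10 genes were higher, against 6.47% of rows, and at the thresholds of the study 0 passed, against 0.342%. Every air ventilated mouse was above every control mouse for 2 genes, Trib3 and Sesn2, as in 2.65% of rows. For H2S ventilated against control mice this was so for 6 genes, as in 4.11% of rows, and these were the same 6 genes that passed the test.

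The direct comparison of H2S with air ventilated mice addresses what H2S added to ventilation. Chac1 was higher and 0 of the 10 were lower, where 0.0705% of all rows were higher and 0.00705% lower. Chac1 also met the thresholds of the study, which 0.0599% of rows did in that direction. All 10 differences were positive with a median of 0.32 on the log2 scale, beside -0.01 for all rows, and 8 of the 10 genes were higher at an unadjusted p under 0.05, against 2.97% of rows. Every H2S ventilated mouse was above every air ventilated mouse for Atf4 and Chac1, as in 0.691% of rows. Both comparisons with control used the same 5 control mice, and their values are therefore given side by side and not as independent results.

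The second number of the labels ran between 1 and 12 for 3 mice of each group and between 20 and 28 for the other 2 mice of each group. No source used here says what this number stands for. In runs of 4 of these numbers, each group always held the same place. Place in a run therefore cannot be told apart from group. Atf4 differed between H2S and control by 0.60 on the log2 scale in the lower set and 0.51 in the upper set, Chac1 by 1.13 and 1.04, and Nupr1 by 1.29 and 1.17. For Chac1 the difference between H2S and air was 0.96 in the lower set and 0.77 in the upper set. The direction was the same in both sets for all of these. With both sets in the fit as a block, the counts of genes past the test were 6 with H2S, 1 with air and 1 between them. With runs of 4 of the same numbers as a block they were 6, 0 and 0, so that the calls of Sesn2 with air and of Chac1 between H2S and air were lost.

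Mice differed in a recurring way across the genes. Among H2S ventilated mice, 27_28 and 4_8 were each highest for 5 of the 10 genes, and 9_12 was lowest for 6. Among air ventilated mice, 6_2 was highest for 5 genes and 11_6 lowest for 6, namely Ddit3, Chac1, Asns, Ddit4, Nupr1 and Psat1. Mouse 11_6 was nevertheless the highest of its group for Ppp1r15a, at 452. Its array median of 184.3 lay within the range of its group. Quantile normalization makes array medians alike, so this median does not measure the quality of the array. The highest air ventilated mouse exceeded the lowest 3.66-fold for Nupr1, 2.89-fold for Psat1 and 2.18-fold for Asns, spreads reached by 0.547%, 1.31% and 3.66% of all rows in this group. Atf4 and Trib3 spread least in the same mice, by 1.14-fold each, below the median of 1.30-fold over all rows. The neutrophil marker sum of mouse 11_6, at 14860, was the highest among air ventilated mice. Mouse 35_26, at 14620, was close to it and was lowest of the group for 0 of the 10 genes. The part of neutrophils in these values was not tested.

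**Figure D3:**
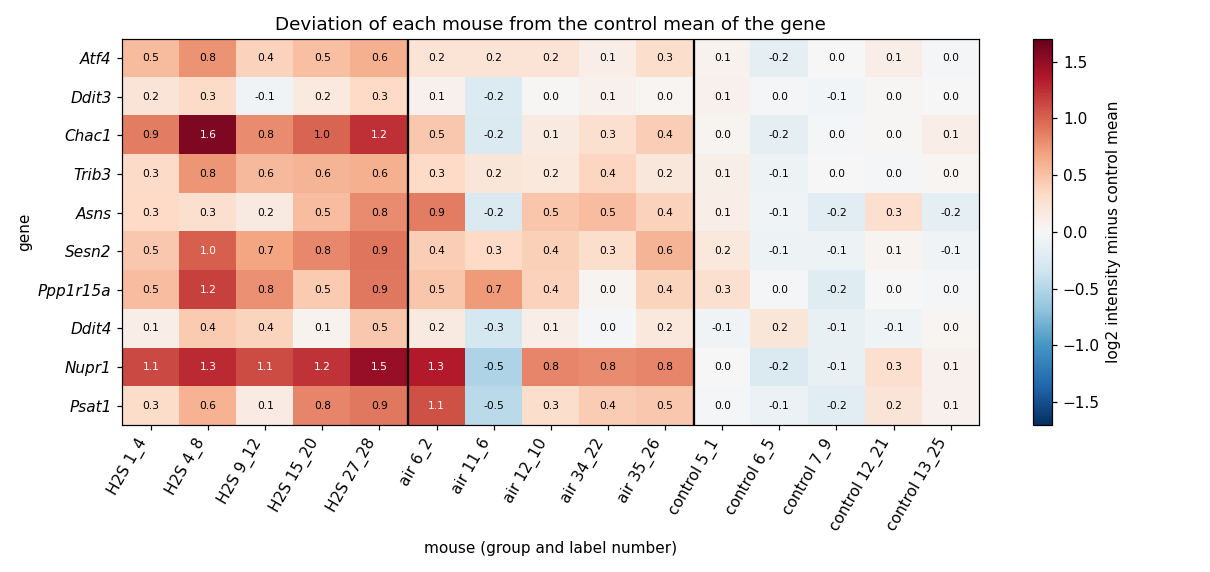
Log2 intensity of each gene (rows) in each mouse (columns, named by group and label number) minus the mean of the control mice for that gene, printed in each cell and coloured from blue (below) to red (above). Air ventilated mouse 11_6 is lowest of its group for 6 genes but not for Ppp1r15a.

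Genes around the 10 were read from lists of the pathway. Of 82 listed genes, 78 had a row, and 21 were higher and 4 lower in H2S ventilated than in control mice, with a median difference of 0.15 on the log2 scale. With air, 10 were higher and 5 lower, with a median of 0.10, and between H2S and air 1 was higher and 0 lower, with a median of 0.05. The shares of all rows given above apply to these counts too. Upstream of Atf4, 11 genes for eIF2 kinases, eIF2B subunits and regulators of eIF2 phosphorylation had a row, and the eIF2 subunit Eif2s1 had none. Of the 11, 1 passed the test with H2S. This was Ppp1r15b, the constitutive relative of Ppp1r15a, at 0.31 ± 0.08 (adjusted p = 0.024), and 0 passed with air.

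Transcription factors of the bZIP class, which pair with Atf4 or are related to it, were higher with H2S in 5 of 6 cases and with air in 0 of 6. Atf3, a stress-induced repressor and activator, had 1759, 1747, 1265, 2527 and 1819 in H2S ventilated mice, against 433, 595, 425, 515 and 348 in air ventilated mice and 432, 401, 434, 537 and 479 in control mice. The H2S ventilated mice were far above both other groups, which overlapped each other. It rose 3.91-fold over air (adjusted p = 2.98e-05) and was the only one of the 78 genes past the test between H2S and air. Nfe2l2, which encodes the antioxidant regulator Nrf2, rose by 0.43 ± 0.09 on the log2 scale over control (adjusted p = 0.0057), and Cebpb by 0.43 ± 0.10 (adjusted p = 0.0178).

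Of 9 amino acid transporters, 4 were higher in H2S ventilated and 4 in air ventilated mice than in control mice. Slc7a11, the cystine importer that supplies glutathione synthesis, had 1123 to 2848 in H2S ventilated mice (median 1171) and 343 to 1816 in air ventilated mice (median 1212), against 134 to 739 in control mice (median 247). Its difference from control was 2.40 ± 0.48 on the log2 scale with H2S (adjusted p = 0.00523) and 1.84 ± 0.48 with air (adjusted p = 0.0445). Slc38a2, a sodium-coupled importer of neutral amino acids, rose by 0.75 ± 0.09 and 0.49 ± 0.09, and Slc3a2, the shared heavy chain of several exchangers, by 0.42 ± 0.07 and 0.28 ± 0.07.

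Among enzymes of amino acid and one-carbon metabolism, 3 of 11 were higher with H2S and 2 of 11 with air. Cth, which makes cysteine and is itself a source of H2S in cells, rose by 0.56 ± 0.11 on the log2 scale with H2S (adjusted p = 0.0045) and by 0.51 ± 0.11 with air (adjusted p = 0.0146). Got1, a cytosolic aminotransferase, and Mthfd2, a mitochondrial folate enzyme, rose by 0.54 ± 0.14 and 0.73 ± 0.20 with H2S. Of 11 cytosolic aminoacyl-tRNA synthetases, Sars (0.34 ± 0.07) and Cars (0.33 ± 0.09) rose with H2S, and 0 passed with air. Wars, the tryptophanyl-tRNA synthetase, differed by -0.33 with H2S and did not pass.

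Of 11 other reported targets of Atf4 or Chop, 4 were higher with H2S, and 3 were higher and 1 lower with air. The autophagy receptor Sqstm1 rose by 0.54 ± 0.08 on the log2 scale with H2S and 0.36 ± 0.08 with air, and Stc2, a secreted stanniocalcin, by 0.69 ± 0.12 and 0.58 ± 0.12. Herpud1, a component of the degradation machinery of the endoplasmic reticulum, rose by 0.48 ± 0.08 with H2S. With air it differed by 0.29 ± 0.08 and did not pass (adjusted p = 0.0693). Chaperones of the endoplasmic reticulum and targets of Atf6 or Xbp1, which belong to the other branches of the unfolded protein response, included 1 of 13 that was higher and 4 that were lower with H2S, and 4 that were lower with air. The chaperone Calr fell by 0.36 ± 0.07 with H2S and the disulfide isomerase Pdia4 by 0.45 ± 0.09, whereas the co-chaperone Dnajb9 rose by 0.50 ± 0.09. With air, Calr differed by -0.31 ± 0.07 (adjusted p = 0.0208) and Pdia4 by -0.38 ± 0.09 (adjusted p = 0.0357). Dnajb9 differed by 0.35 ± 0.09 with air and did not pass (adjusted p = 0.0514). Among 6 relatives of the 10 genes, Trib1 rose by 0.83 ± 0.15 with H2S (adjusted p = 0.00236), while Chac2, at 0.29 ± 0.11, and Sesn3, at -0.20, did not pass. With air, 1 of the 6 passed, Sesn1, a sestrin related to Sesn2, at 0.48 ± 0.12 (adjusted p = 0.035).

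**Figure D4:**
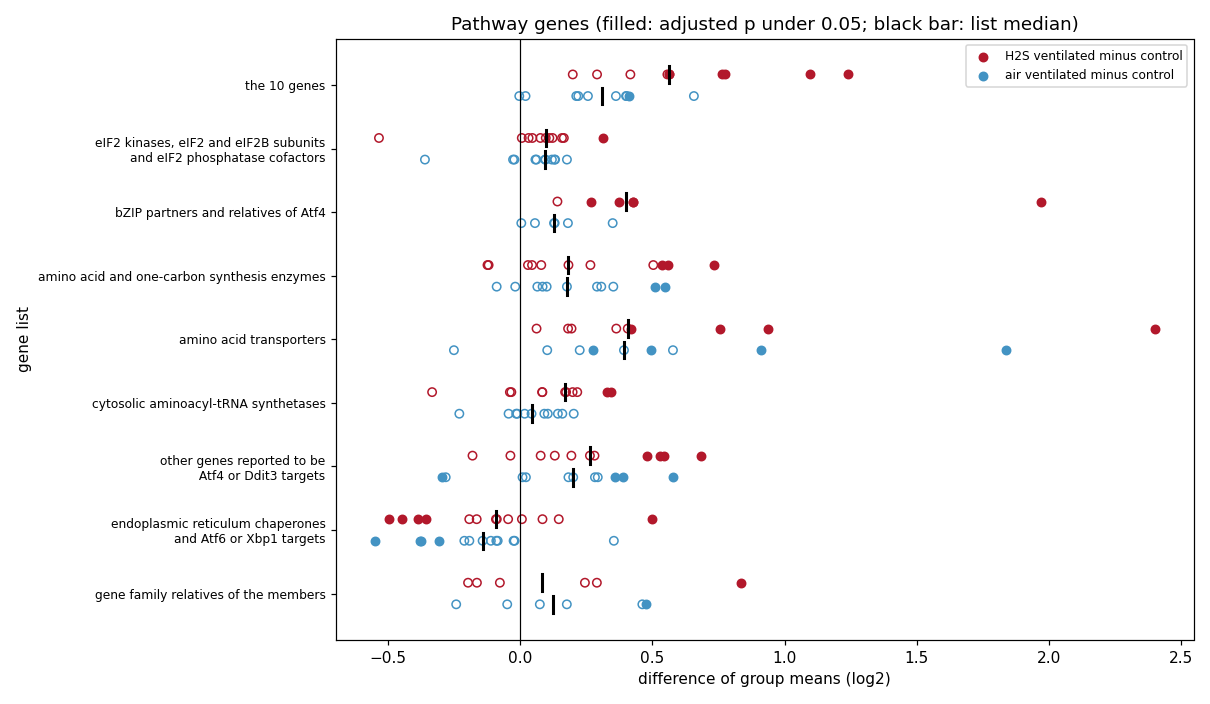
Difference from control (log2) of the 10 genes and of 78 pathway genes in 8 lists, for H2S ventilated and air ventilated mice. Filled points had an adjusted p under 0.05, and black bars are list medians. The median of the 10 genes lies at 0.56 with H2S and 0.31 with air.

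For Chac1 and Atf4, which had the smallest p between H2S and air of the 10 genes, the genes most like them over the 15 arrays were sought by the root mean square difference of log2 values, each centred on its own control mean. The nearest of 19924 other genes to Chac1 were Krt18 at 0.20, Akr1b8 at 0.23, Fam110c at 0.25, Krt8 at 0.26 and Gadd45a at 0.27, where the median over all genes was 0.71. The genes nearest to Atf4 were Grhl1 at 0.07, Rpp38 at 0.08, Irx1 at 0.09, 4930523C07Rik at 0.09 and Sqstm1 at 0.10, where the median was 0.41. Krt18 and Krt8 encode the keratin pair of simple epithelia, and Gadd45a is a stress-induced growth arrest gene. The arrays share their groups and their normalization, and likeness is given as a description.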

How the data were processed

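The deposited values are intensities that the authors made from Affymetrix whole-transcript arrays, 1 per mouse. Their methods name Command Console 3.0 and Genedata Expressionist Refiner 6.1, a GC-dependent background from anti-genomic probes, quantile normalization and summarization with RMA. The table held 28361 rows in 15 columns, with 0 columns unused. The values were linear, where the design had allowed for log2, and were transformed to log2. Gene symbols came from the platform annotation given for this work, which gave 21780 rows 1 symbol, 1617 several and 4964 none.

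All 3 groups entered 1 fit without covariates (lmFit, contrasts.fit and eBayes of limma 3.58.1, under R 4.3.3), and p-values were adjusted by Benjamini-Hochberg over all rows. Folds and their 95% intervals come from this fit. The limma step was tested on simulated data. Plots were drawn with Python 3.11.15 and matplotlib 3.10.9. The 10 genes, the lists and the markers were chosen with earlier results of these data known. Named genes were the 10, up to 3 genes of each list with the smallest p for H2S against control, list genes past the test between H2S and air, and the 5 genes most like Chac1 and Atf4. Alternatives were CyberT (window 101, confidence 15), the thresholds of the study, the 2 groups compared alone, array weights, a variance trend, a second quantile normalization, median centring, an offset of 16, leaving out the dimmest 25% of rows, group medians, the label numbers as sets or blocks, and leaving out each mouse. The label numbers were tested for pairing in runs of 4. Over 13 pairs of mice from the same run and different groups, deviations correlated at 0.18 on average, from -0.18 to 0.36, beside -0.04 on average for mice of different runs. Not every pair was over 0.1, and no pairing was assumed. The number of arrays limits the precision.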

Additional observations from a re-analysis of the deposited data

Results flagged for a closer look

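Ddit3 in air ventilated mouse 11_6 lay far from the rest of its group. Its intensity of 249 was below the other 4 mice, which ran from 297 to 308. On the log2 scale, the gap to the nearest mouse was 0.826 of the range of the group, above the critical value of 0.71. This was 1 of 30 combinations of gene and group examined, and chance gives about 1 in 20 such cases. Nupr1 in the same mouse, at an intensity of 1195, came to 0.708 on the log2 scale, just under that value.

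Chac1 differed between mice ventilated with H2S and mice ventilated with air alone. The difference from control was 1.10 on the log2 scale with H2S and 0.21 with air, and the direct test between H2S and air gave 0.88 (limma, adjusted p = 0.0317, range over alternatives 9.17e-05 to 0.872), with all 5 H2S ventilated mice above all 5 air ventilated mice.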

How the results depend on the processing

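For H2S against control, where 6 of the 10 genes passed, 3 passed at the thresholds of the study and 0 when only the 2 mice per group numbered 20 to 28 were used, where few samples remained. The other fits gave 5 to 8 genes (8 with CyberT), and leaving out single mice gave 6 to 7. For air against control, where 1 passed, the count was 3 with CyberT, 5 with array weights and 2 after a second quantile normalization. It was 0 at the thresholds of the study and with the runs of 4 as a block. The mice numbered 1 to 12 or 20 to 28 alone also gave 0. Leaving out single mice gave 0 to 3, with 0 without control mouse 13_25, 7_9 or 6_5 or air ventilated mouse 12_10, 35_26 or 6_2, and 3 without air ventilated mouse 11_6. For H2S against air, where 1 passed, the count was 0 in the fit of those 2 groups alone. It was also 0 with the runs of 4 as a block and in either number set alone, and 0 to 1 without single mice. The label numbers did not meet the condition for pairing, and the runs of 4 as a block gave 6, 0 and 0 genes in the 3 comparisons.

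Some differences near 0 changed sign. Ddit3 between air and control was 0.032 with array weights, 0.021 after quantile normalization, 0.019 after centring and 0.042 in mice 20 to 28, and ran from -0.024 to 0.053 without single mice. Ddit4 between air and control was -0.022 in mice 1 to 12 and -0.018 to 0.10 without single mice. Asns between H2S and air was -0.030 with array weights, -0.0066 after quantile normalization, -0.11 in mice 1 to 12 and -0.15 to 0.14 without single mice. Psat1 between H2S and air was -0.0098 to 0.37 without single mice. The cause of these changes was not tested. The mean of several rows per gene was not run, since each of the 10 genes had 1 row. All 10 genes lay above the limit for dim rows.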
